A study of Homo sapiens with 18 samples.

Results

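The APOA4-KO line was compared with HepG2 before hypoxia, across all genes. HepG2 is an established line of human hepatoma cells. In APOA4-KO, which was made from it, exons of APOA4, the gene of apolipoprotein A-IV, were targeted with CRISPR-Cas9. The comparison takes the 6 samples labelled 0 h of the 18 samples in the series, with 3 libraries of untreated cells of the WT genotype (HepG2 0 h) and 3 libraries of untreated cells of the APOA4 knockout genotype (APOA4-KO 0 h). The other 12 libraries are of the same lines after 24 h and 48 h of hypoxia, and they are used only to estimate the spread and to follow the genes of 0 h. Single colonies were picked when the line was made and it is compared as a single line, so the edit and any other difference between the cells of the lines cannot be told apart. The labels do not say that the 3 libraries of a group came from separate cultures, so the p-values measure the spread between these libraries, which may be technical.

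A hepatocyte secretes most proteins of the plasma, exports lipid in lipoproteins, releases glucose by gluconeogenesis, and detoxifies drugs, bilirubin and hormones by oxidation and conjugation. Apolipoprotein A-IV travels on lipoproteins rich in triglyceride and on high-density lipoproteins. A hepatoma line keeps a part of the hepatocyte program and also expresses genes of the fetal liver, and separately derived sublines can differ in how much of each they keep.

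Poly(A) RNA was sequenced as paired reads and counted on genes by the authors. The total counts lay between 80852233 and 82601147 in HepG2 and between 76778865 and 86840028 in APOA4-KO. Counts of 4, 8 and 12 were 1.64 to 3.07 times as frequent as their neighbours here, and small counts are therefore less precise than their size implies. All 10 hepatocyte markers on the list had counts in both lines, and their summed level was 57993 to 58667 CPM in HepG2 and 65495 to 66606 CPM in APOA4-KO, where CPM is a count scaled to a common library size after TMM normalization. The markers of blood and lymphocytes did not separate the lines: the summed erythroid level ranged from 2.12 to 353 CPM in HepG2 and from 122 to 474 CPM in APOA4-KO, and that of lymphocytes from 0.831 to 5.37 CPM and from 4.34 to 5.49 CPM.

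One set of genes needs to be described before the results, since it was highest in 4 libraries that are not a group of the study. In 95 tested genes, the lowest CPM among the 3 APOA4-KO libraries of 0 h and APOA4-KO 24 h replicate 1 was at least 2 times the highest CPM among the other 14 libraries. Of these genes, 57 belong to the genes counted as changed at 0 h, and all 57 were higher in APOA4-KO. Their summed level was 303 to 321 CPM in APOA4-KO at 0 h and 349 CPM in APOA4-KO 24 h replicate 1, but 54.2 to 82.2 CPM in the other 5 APOA4-KO libraries and 41.2 to 85.6 CPM in the 9 HepG2 libraries. The set holds mesenchymal, matrix and interferon-stimulated genes, and it is called the 4-library pattern here. It was noticed after the values had been seen, and its part in the results was not tested. The opposite pattern, with the same 4 libraries low, was found in 60 genes, of which 16 were counted as lower at 0 h.

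**Figure D1:**
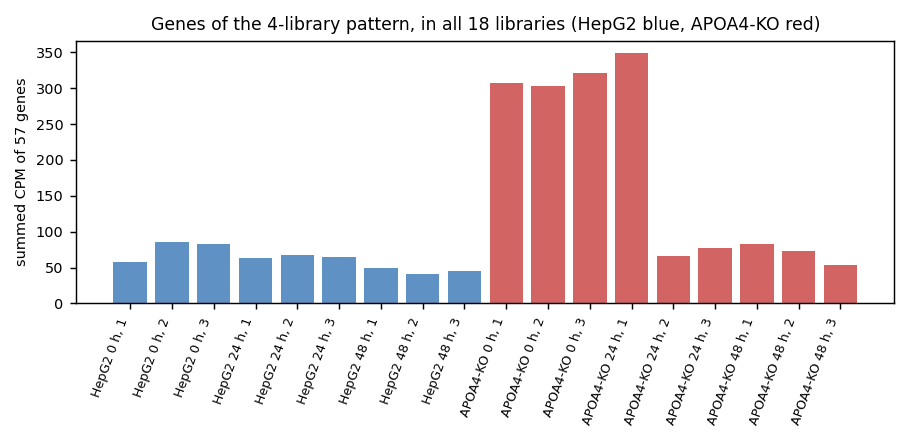
Summed level (CPM) of the 57 changed genes of the 4-library pattern, with 1 bar for each of the 18 libraries, named by line, time and replicate (HepG2 blue, APOA4-KO red). The 3 APOA4-KO libraries of 0 h and APOA4-KO 24 h replicate 1 stand at 303 to 349 CPM, and the other 14 libraries at 41.2 to 85.6 CPM.

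Of 19743 tested genes, 851 were changed at 0 h, which is 4.31%, with 524 higher in APOA4-KO (2.65%) and 327 lower (1.66%). Changed means here a 2-fold difference or more in either direction together with an adjusted p under 0.05 (Benjamini-Hochberg) in edgeR's quasi-likelihood test, fitted to all 18 libraries. Without the limit on the fold change, 6015 genes passed, 2548 of them higher (12.9% of the tested genes) and 3467 lower (17.6%), so most of the differences past the test were smaller than 2-fold and more of them lay below than above HepG2. The median log2 fold change of all tested genes was −0.01. Of the 851 genes, 706 are protein coding, 309 differed by more than 4-fold (216 higher and 93 lower), and 817 had no overlap between the 3 libraries of each line, which was also the case for 43.9% of all tested genes. Setting aside the 4-library pattern leaves 794 changed genes, of which 467 were higher. The remainder can still hold genes that move with the same 4 libraries. Compared only with the other APOA4-KO libraries of 24 h, 92 of the 524 higher genes were at least 2 times as high in all 4. At the limit, 89 changed genes had an absolute log2 fold change between 1 and 1.1, and 122 genes past the test lay just under it, between 0.9 and 1.

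**Figure D2:**
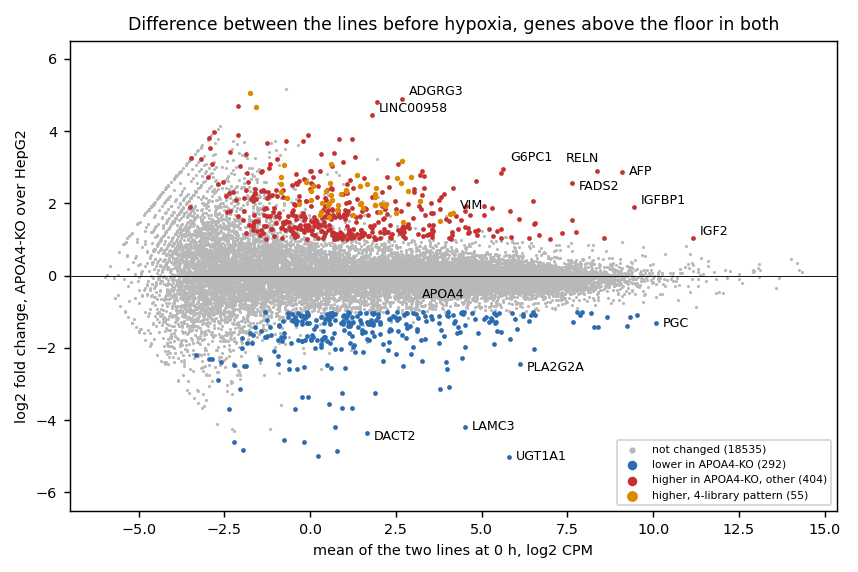
Log2 fold change of APOA4-KO over HepG2 at 0 h (vertical axis) against the mean level of both lines in log2 CPM (horizontal axis), for 19285 genes above the floor of 3 counts in both lines. Changed genes are coloured by direction and by the 4-library pattern. The abundant genes IGF2, PGC, IGFBP1 and AFP lie at the right, AFP and RELN far above the line of no change and UGT1A1 and LAMC3 far below it.

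APOA4 itself (ENSG00000110244, chr11:116820700-116823306, minus strand, GRCh38) was not changed by these limits. It had 755, 799 and 702 counts in HepG2 and 662, 702 and 607 counts in APOA4-KO. The lowest HepG2 library and the highest APOA4-KO library had the same count, and after scaling the libraries of APOA4-KO stood just below those of HepG2, at 7.71 ± 0.688 CPM against 9.03 ± 0.608 CPM (SD, n = 3 for each). The log2 fold change was −0.23 (SE 0.08, edgeR adjusted p = 0.0404), and it passed 0.05 in 5 of 15 refits with another setting or with a library left out. The count over the whole gene does not show whether the transcripts carry the edit. Another annotated gene covers 43.1% of the exon bases of APOA4. EPO, the hypoxia-inducible gene of erythropoietin, had 427, 376 and 513 counts in HepG2 and 691, 749 and 756 counts in APOA4-KO, before any hypoxia. All 3 APOA4-KO libraries were above all 3 HepG2 libraries, with a log2 fold change of 0.70 (SE 0.10, edgeR adjusted p = 1.6e-05) that does not reach 2-fold.

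Several of the abundant transcripts that differed most encode secreted proteins, among them AFP, the gene of the fetal serum protein alpha-fetoprotein. AFP had 10760, 10968 and 10797 counts in HepG2 and 75237, 85669 and 84043 counts in APOA4-KO. The replicates of each line lie close together and far from the other line, at 130.1 ± 2.55 CPM and 956 ± 9.55 CPM (SD, n = 3 for each), a 7.35-fold difference (log2 fold change 2.88, SE 0.03, edgeR adjusted p = 7.39e-21). Of 13 tested genes of the fetal liver and of hepatoma, 4 were higher and none was lower, against 4.31% of all tested genes changed. Besides AFP these were DLK1, a fetal membrane protein (log2 fold change 1.18), the stem cell factor SALL4 (1.11) and the growth factor IGF2 (1.03), while glypican-3 (GPC3, −0.08) and IGF2BP1 (0.15) passed the test at small differences. The median of the list was 0.39, against −0.01 over all genes. IGF2 was the most abundant of the changed genes that were higher, with 125815, 124788 and 126300 counts in HepG2 and 248166, 276607 and 265234 counts in APOA4-KO, but 75% of its exon bases are shared with INS-IGF2, to which no count was assigned.

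The adult plasma proteins moved less uniformly. Of 10 hepatocyte markers, TTR, which carries thyroxine and retinol-binding protein, was higher by a log2 fold change of 1.46 and FGB, the beta chain of fibrinogen, by 1.55. ALB was at 0.45, TF at 0.32 and APOA1 at −0.19, all past the test without reaching 2-fold, and the median of the list was 0.17. Coagulation and fibrinolysis gave 6 changed genes of 28, all of them higher, against 4.31% of all tested genes changed, with a median of 0.41. FGB had 8507, 8319 and 8340 counts in HepG2 and 23569, 26555 and 25229 counts in APOA4-KO. Plasminogen (PLG), the precursor of the protease that dissolves fibrin, was higher, with 16, 25 and 29 counts in HepG2 and 188, 269 and 310 counts in APOA4-KO (10.6-fold, edgeR adjusted p = 2.54e-05). CPB2, which protects fibrin from plasmin, was higher by 1.92, F12 by 1.32 and PLAU, the urokinase gene, by 1.39, although 31.1% of the exon bases of PLAU overlap another gene. Plasma prekallikrein (KLKB1) had no count in HepG2 and 26, 31 and 26 counts in APOA4-KO. Of the list, 17 genes were higher and 3 lower at an adjusted p under 0.05, the lower ones being KNG1 (−0.73), SERPINF2 (−0.27) and PROC (−0.14). Among 35 complement and acute phase genes, ceruloplasmin (CP, 1.05), C8A (1.29) and ITIH1 (1.31) were higher and HAMP, which encodes the iron hormone hepcidin, was lower. HAMP had 722, 607 and 515 counts in HepG2 and 172, 252 and 255 counts in APOA4-KO (log2 fold change −1.48).

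The promoters of AFP and FGB are shown because both genes were higher with SEs of 0.03 and both windows hold a half-site of HNF1, a transcription factor of liver genes. They were chosen after the matches were seen. The half-site was searched as GTTAAT on both strands from 250 bases before to 50 bases after the gene start in RefSeq (GRCh38.p14), and matches are in capitals. It occurs in 6.89% of the 27305 promoters of the table, in 4.14% of those of tested genes, in 7.16% of those of the genes higher in APOA4-KO and in 7.88% of those of the lower genes. A match is a description of these letters only.
AFP (chr4:73435971-73436270, plus strand): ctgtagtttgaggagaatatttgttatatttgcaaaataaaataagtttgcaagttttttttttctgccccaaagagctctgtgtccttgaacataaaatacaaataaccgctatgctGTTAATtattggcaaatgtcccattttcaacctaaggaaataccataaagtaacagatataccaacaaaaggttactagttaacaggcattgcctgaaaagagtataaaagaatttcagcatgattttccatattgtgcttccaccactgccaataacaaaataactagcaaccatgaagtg
FGB (chr4:154562730-154563029, plus strand): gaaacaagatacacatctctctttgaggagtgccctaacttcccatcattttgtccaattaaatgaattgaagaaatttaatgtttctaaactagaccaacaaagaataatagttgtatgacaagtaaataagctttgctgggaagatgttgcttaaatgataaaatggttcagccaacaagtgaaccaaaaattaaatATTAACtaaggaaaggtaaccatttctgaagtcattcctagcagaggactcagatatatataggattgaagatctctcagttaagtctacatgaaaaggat
The match in AFP begins 132 bases before the start and the match in FGB, on the opposite strand, 51 bases before it.

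The gluconeogenic genes G6PC1 and PCK1 were higher. G6PC1, the glucose-6-phosphatase that releases free glucose, had 851, 928 and 1044 counts in HepG2 and 6709, 8254 and 7635 counts in APOA4-KO, a 7.80-fold difference (log2 fold change 2.96, SE 0.06, edgeR adjusted p = 1.01e-16). PCK1, the cytosolic phosphoenolpyruvate carboxykinase, had 206, 245 and 194 counts in HepG2 and 1259, 1793 and 1413 counts in APOA4-KO (log2 fold change 2.75). In both genes every APOA4-KO library was more than 5 times every HepG2 library. Of 18 genes of gluconeogenesis and glycogen, 4 were higher and none was lower, the other 2 being PPP1R3G (2.65) and PPP1R3B (1.32), which target a phosphatase to glycogen, and the median of the list was 0.22. IGFBP1, an insulin-repressed binding protein of the insulin-like growth factors, had 24374, 24427 and 25320 counts in HepG2 and 79331, 102144 and 101088 counts in APOA4-KO (297 ± 8.08 and 1100 ± 86.8 CPM, SD, n = 3, log2 fold change 1.89). IGFBP2 (1.31), IGFBP5 (2.27), PAPPA (1.62), a protease of these binding proteins, and IGF2 were the other changed genes among 23 of insulin and IGF signalling, and all were higher. IGFBP5 belongs to the 4-library pattern, and 21.2% of the exon bases of PAPPA overlap another gene. DEPP1, a target of the FOXO factors that insulin inhibits, was higher by 1.21, with an overlap of 23.3%. In glycolysis, 3 of 34 genes were higher, HK1 (1.17), LDHB (1.09, overlap 33.4%) and PFKFB4 (1.05), against 2.65% of all tested genes. By the adjusted p alone 21 were higher and 4 lower, against 12.9% and 17.6%.

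Among genes of lipid metabolism, FADS2, the delta-6 desaturase that starts the synthesis of long polyunsaturated fatty acids, had 4842, 4706 and 4924 counts in HepG2 and 27281, 31128 and 29276 counts in APOA4-KO, a 5.91-fold difference (log2 fold change 2.56, SE 0.04, edgeR adjusted p = 1.43e-18). The elongase ELOVL6 was higher by 1.54, and they were the only changed genes of 28 of fatty acid and triglyceride synthesis, of which 8 were higher and 12 lower at an adjusted p under 0.05. The lower ones included the acyltransferases AGPAT2 (−0.88), DGAT1 (−0.76) and DGAT2 (−0.75), which add the later fatty acids to triglyceride, and FASN was at 0.22. FABP1, the fatty acid binding protein of liver, was higher by 1.57 as the only changed gene of 39 of fatty acid uptake and oxidation. Of all tested genes 4.31% were changed. Of 25 genes of apolipoproteins and lipoprotein assembly, 3 were higher and none was lower: APOL1 (1.79), which circulates on high-density lipoprotein, the cholesteryl ester transfer protein CETP (1.66) and LCAT (1.51), which esterifies cholesterol on lipoproteins. CETP had 79, 62 and 91 counts in HepG2 and 220, 283 and 249 counts in APOA4-KO, and LCAT had 766, 652 and 738 counts and 1949, 2345 and 2014 counts. MTTP, which loads lipid on apolipoprotein B, was at 0.91 and APOB at 0.16. No gene of 24 of cholesterol synthesis and uptake reached 2-fold and an adjusted p under 0.05 together. By the adjusted p alone 17 were higher and 4 lower, against 12.9% and 17.6% of all tested genes. HMGCS1 was at 0.53 and the median was 0.19. Among lipid droplet genes, PLIN1, with 45, 60 and 27 counts in HepG2 and 133, 138 and 111 counts in APOA4-KO, and MGLL (1.40) were higher, and BSCL2 (−2.17) shares 51.9% of its exon bases with another gene. With 1 library left out, 1 or 2 genes of the list were changed. Summed with the read-through gene HNRNPUL2-BSCL2, the BSCL2 locus stood at 24.9 ± 5.44 CPM in HepG2 and 20.5 ± 2.31 CPM in APOA4-KO (SD, n = 3), and the libraries of the lines overlapped.

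More of the changed detoxification enzymes were lower than higher. Of 55 tested cytochromes P450 and conjugation enzymes, 7 were lower and 3 higher, against 1.66% and 2.65% of all tested genes, with a median of −0.23. UGT1A1, the glucuronosyltransferase that conjugates bilirubin, gave the largest decrease among genes named by the rule for abundance, with 9387, 8709 and 9150 counts in HepG2 and 240, 304 and 323 counts in APOA4-KO (log2 fold change −5.01, SE 0.17, edgeR adjusted p = 1.2e-13). The genes of the UGT1A locus share their last exons, so that counts can be split between them. Summed over the 13 IDs of the locus, the level was 116 ± 3.42 CPM in HepG2 and 5.21 ± 0.128 CPM in APOA4-KO (SD, n = 3), without overlap, and UGT1A1 makes up most of this sum. UGT1A3, by contrast, had 18, 0 and 4 counts in HepG2 and 82, 49 and 34 counts in APOA4-KO. ALDH1A1, which makes retinoic acid, had 40768, 40702 and 39633 counts in HepG2 and 14506, 16759 and 15228 counts in APOA4-KO (log2 fold change −1.42). EPHX1, the microsomal epoxide hydrolase, was lower by −1.13, GSTA1 by −1.02, ALDH3A1 by −2.05 and ADH1B by −1.88, and UGT1A6 (−1.98) had libraries that overlapped. The 3 higher genes were GSTP1 (1.35), CYP1B1 (1.35) and CYP4F2 (1.09). Of the bile acid genes, by contrast, 4 of 25 were higher and none was lower. ABCB4, the canalicular phospholipid transporter, had 238, 263 and 183 counts in HepG2 and 1090, 1140 and 1250 counts in APOA4-KO (log2 fold change 2.31). CYP7A1, the rate-limiting enzyme of bile acid synthesis, was higher by 1.37, CYP8B1, which makes cholic acid, by 1.05, and BAAT, which conjugates bile acids, by 1.84.

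Most targets of 2 stress pathways lay below HepG2 by small amounts. Of all tested genes, 12.9% were higher and 17.6% lower at an adjusted p under 0.05. By the limits of change 2.65% were higher and 1.66% lower. Of 28 targets of NRF2, the factor of the antioxidant response, 21 were lower and 1 was higher at an adjusted p under 0.05, with a median of −0.40, and by the limits of change AKR1B10 (−1.67) and GPX2 (−1.15) were lower. GPX2, a glutathione peroxidase, had 73720, 72904 and 73382 counts in HepG2 and 31827, 35625 and 33982 counts in APOA4-KO. NQO1 was at −0.67 and NFE2L2, the gene of NRF2 itself, at −0.16 with an exon overlap of 20.9%. Of 28 targets of p53, 20 were lower and 3 higher by the adjusted p, also with a median of −0.40. FDXR (−1.03) and the cell cycle inhibitor CDKN1A were lower by the limits and PMAIP1 (1.07) was higher, and with 1 library left out 1 to 3 genes of the list were changed. CDKN1A had 27205, 26092 and 27219 counts in HepG2 and 12612, 14449 and 14157 counts in APOA4-KO, a difference that lies at the limit of 2-fold. Of 36 genes of the amino acid and unfolded protein responses, 23 were lower and 2 higher by the adjusted p with a median of −0.15, and none was changed. Targets of the hypoxia-inducible factor went the other way before hypoxia. Of 30 genes, 25 were higher and 1 lower by the adjusted p, with a median of 0.33, and CA9 (1.67), a carbonic anhydrase, PFKFB4 and P4HA1 (1.02), a collagen prolyl hydroxylase, were changed. CA9 had 1110, 858 and 1055 counts in HepG2 and 3015, 3411 and 3402 counts in APOA4-KO, but 38.5% of its exon bases overlap another gene.

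**Figure D3:**
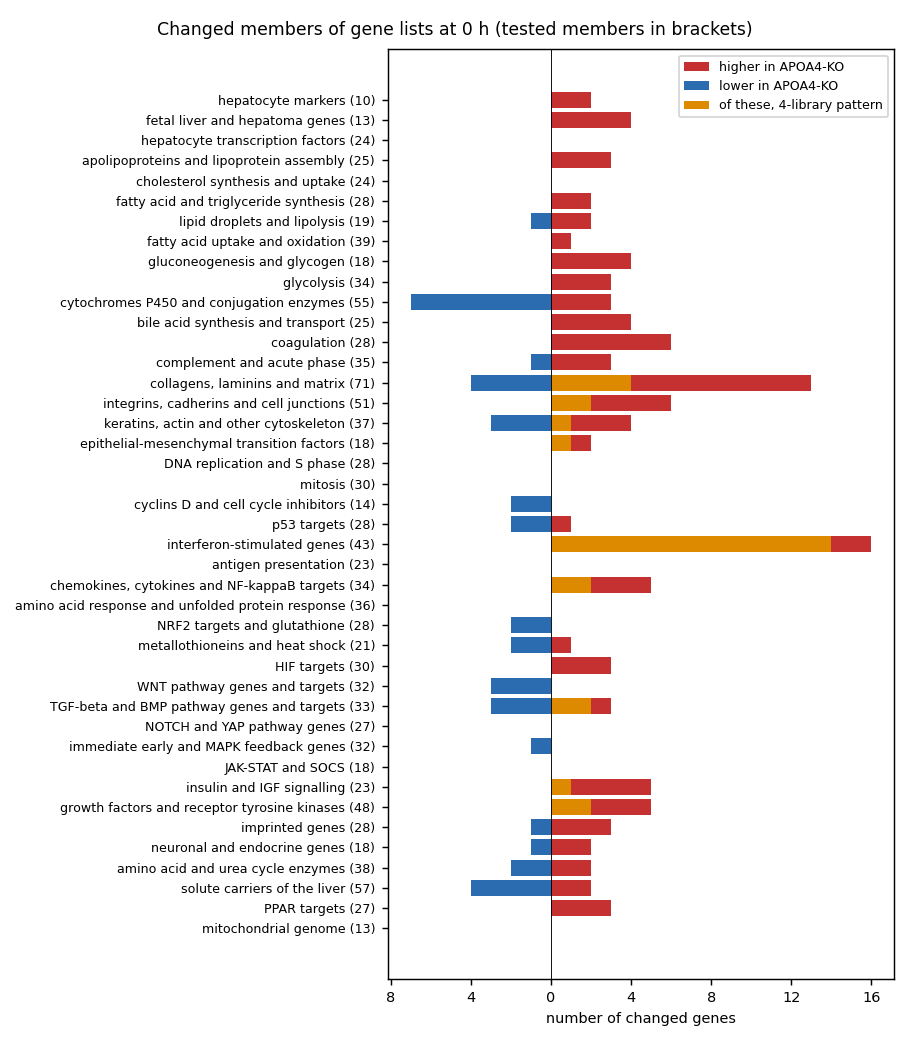
Number of changed genes (horizontal axis) in each list with at least 10 tested members, drawn to the right where higher in APOA4-KO and to the left where lower, with the members of the 4-library pattern in orange. Interferon-stimulated genes have the longest bar to the right, 16 genes, of which 14 are orange, and the cytochromes P450 and conjugation enzymes have the most lower genes, 7.

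Matrix genes were changed in both directions. Of 71 tested genes of collagens, laminins and other matrix, 13 were higher and 4 lower, against 2.65% and 1.66% of all tested genes. The median was 0.23. Among the lower ones, LAMC3, a gamma chain of laminin, had 3698, 3767 and 3445 counts in HepG2 and 189, 200 and 229 counts in APOA4-KO (log2 fold change −4.18, SE 0.08, edgeR adjusted p = 5.69e-17). SPP1, the gene of osteopontin, had 74470, 73586 and 72192 counts and 27400, 29631 and 29053 counts (log2 fold change −1.39), and biglycan (BGN) was at −1.02. MMP7 had 7, 12 and 48 counts in HepG2 and none in APOA4-KO. Of the higher genes, MATN3, a matrilin of cartilage matrix, had 2833, 2972 and 3050 counts in HepG2 and 10607, 13552 and 13597 counts in APOA4-KO (log2 fold change 2.05). FBN1 (1.84), LOXL2 (1.84) and COL1A1 (1.68) were also higher. COL1A1 was highest in APOA4-KO 24 h replicate 1 of all libraries, with 449 counts there, 151 and 176 counts in the other libraries of that group and 113, 99 and 141 counts in HepG2 at 24 h. COL4A1 (2.57), COL4A2 (2.05), COL5A2 (2.17) and COL8A1 (2.79) belong to the 4-library pattern, and COL4A1 had 115, 155 and 181 counts in HepG2, 814, 985 and 954 counts in APOA4-KO at 0 h and 1056 counts in APOA4-KO 24 h replicate 1, but 137 and 188 counts in the other libraries of that group. Outside the list, COMP, a cartilage matrix protein, was lower, with 2563, 2259 and 2551 counts in HepG2 and 262, 338 and 302 counts in APOA4-KO (log2 fold change −3.07). RELN, the large secreted glycoprotein reelin, was higher, with 6272, 6224 and 6939 counts in HepG2 and 44771, 53145 and 50112 counts in APOA4-KO (77.8 ± 5.09 and 578 ± 13 CPM, SD, n = 3, log2 fold change 2.89).

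The cytoskeleton lay mostly below HepG2. Of 37 genes, 20 were lower and 8 higher at an adjusted p under 0.05, against 17.6% and 12.9% of all tested genes, with a median of −0.38. By the limits of change 3 were lower and 4 higher, against 1.66% and 2.65%. MYL9, a regulatory light chain of non-muscle and smooth muscle myosin, had 12315, 12210 and 12341 counts in HepG2 and 3034, 3030 and 3187 counts in APOA4-KO (log2 fold change −2.03), and KRT80 was lower by −1.87. The simple keratins KRT8 (−0.85), KRT18 (−0.58) and KRT19 (−0.77) and beta-actin (ACTB, −0.45) passed the test without reaching 2-fold. FSCN1, which bundles actin filaments, was among the most abundant changed genes, with 86598, 82390 and 85294 counts in HepG2 and 37926, 43360 and 40346 counts in APOA4-KO (log2 fold change −1.10). Vimentin (VIM), the intermediate filament of mesenchymal cells, had 684, 767 and 606 counts in HepG2 and 2221, 2404 and 2368 counts in APOA4-KO (log2 fold change 1.73). It shares 24.4% of its exon bases and belongs to the 4-library pattern, with 2242 counts in APOA4-KO 24 h replicate 1 and 639 and 721 counts in the other libraries of that group. TPM2 (1.88) was also higher, as was TUBB1, which has an exon overlap of 34.0%. KRT7 (1.23) had 622, 595 and 559 counts in HepG2 and 1075, 1605 and 1620 counts in APOA4-KO. It also moved with the 4 libraries without meeting the 2-fold rule of the pattern, with 1503 counts in APOA4-KO 24 h replicate 1 and 235 to 448 counts in the other 5 APOA4-KO libraries. Among the junction and adhesion genes, 6 of 51 were higher and none was lower, against 2.65% and 1.66% of all tested genes. CLDN14 (3.38) and CLDN6 (1.56), of tight junctions, are outside the 4-library pattern, and the integrin ITGA5 (1.71) and the gap junction gene GJA1 (2.22) are in it.

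Of all lists, that of interferon-stimulated genes had the most members higher in APOA4-KO, and nearly all of them follow the 4-library pattern. Of 43 tested genes, 16 were higher and none was lower, against 2.65% and 1.66% of all tested genes, and 14 of the 16 are in the pattern. RSAD2, the antiviral protein viperin, had 16, 222 and 141 counts in HepG2, 809, 780 and 969 counts in APOA4-KO at 0 h and 898 counts in APOA4-KO 24 h replicate 1, but 115 and 112 counts in the other 2 libraries of that group and 119, 102 and 18 counts in APOA4-KO at 48 h. IFIT1, which binds foreign RNA, had 138, 276 and 233 counts in HepG2 and 609, 738 and 881 counts in APOA4-KO (log2 fold change 1.74, SE 0.43, edgeR adjusted p = 0.00432). HepG2 replicate 1 was the lowest HepG2 library for both genes, and without it RSAD2 had an edgeR adjusted p of 0.0572 and 11 genes of the list were changed. The summed level of the 16 genes was 119 to 131 CPM in APOA4-KO at 0 h, 135 CPM in APOA4-KO 24 h replicate 1, 32.7 to 45.4 CPM in the other 5 APOA4-KO libraries and 26.3 to 45.2 CPM in HepG2. MX1 (1.01) and IFITM1 (1.16) are the 2 changed genes outside the pattern, and IFITM1 shares 32.5% of its exon bases. By the adjusted p alone 22 genes of the list were higher and 8 lower, with a median of 0.36. Of 23 genes of antigen presentation, none was changed, 1 was higher and 8 were lower by the adjusted p, with a median of −0.23.

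The promoters of 4 of these genes, chosen after the matches were seen, are shown because they hold a sequence through which interferon acts. The interferon-stimulated response element was searched as GAAA followed by 2 bases of any kind and again GAAA, on both strands in the same RefSeq windows, and matches are in capitals. It occurs in 3.65% of all promoters and 2.86% of those of tested genes, in 9 of the 12 promoters at hand of the changed interferon-stimulated genes, in 12 of 21 of those not changed, and in 6.02% of all promoters of genes higher in APOA4-KO and 1.97% of those of lower genes.
IFIT1 (chr10:89392373-89392672, plus strand): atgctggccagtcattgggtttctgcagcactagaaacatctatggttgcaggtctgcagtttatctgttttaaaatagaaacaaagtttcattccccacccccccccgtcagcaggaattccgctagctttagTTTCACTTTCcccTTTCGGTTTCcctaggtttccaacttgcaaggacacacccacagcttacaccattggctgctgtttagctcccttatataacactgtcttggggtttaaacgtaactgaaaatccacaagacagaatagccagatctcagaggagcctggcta
IFIT3 (chr10:89327747-89328046, plus strand): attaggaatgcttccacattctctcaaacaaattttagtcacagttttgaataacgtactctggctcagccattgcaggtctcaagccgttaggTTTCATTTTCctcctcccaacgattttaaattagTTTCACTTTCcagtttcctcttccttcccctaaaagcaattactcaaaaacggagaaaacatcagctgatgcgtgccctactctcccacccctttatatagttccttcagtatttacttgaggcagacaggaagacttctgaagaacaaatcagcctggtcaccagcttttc
IFI27 (chr14:94110486-94110785, plus strand): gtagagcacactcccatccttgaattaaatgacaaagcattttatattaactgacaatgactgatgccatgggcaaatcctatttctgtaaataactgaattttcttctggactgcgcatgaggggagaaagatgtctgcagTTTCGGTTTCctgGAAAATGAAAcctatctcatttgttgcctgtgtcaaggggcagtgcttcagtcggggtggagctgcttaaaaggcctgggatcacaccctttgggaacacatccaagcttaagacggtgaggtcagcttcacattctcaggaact
IFITM1 (chr11:313790-314089, plus strand): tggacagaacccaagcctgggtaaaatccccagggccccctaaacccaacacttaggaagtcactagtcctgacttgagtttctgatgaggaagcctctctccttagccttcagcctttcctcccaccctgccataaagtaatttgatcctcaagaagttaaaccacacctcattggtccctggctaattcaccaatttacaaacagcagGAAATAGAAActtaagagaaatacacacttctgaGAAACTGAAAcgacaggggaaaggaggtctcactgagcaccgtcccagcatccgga
Each of the 4 windows holds 2 matches. IFIT1, IFIT3 and IFI27 are in the 4-library pattern, and IFITM1, with 472, 499 and 400 counts in HepG2 and 1058, 1084 and 981 counts in APOA4-KO, is not.

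Endothelial markers moved with the 4-library pattern in part. Of 5 tested markers, only CDH5 was changed, and it was higher without meeting the 2-fold rule of the pattern. By the adjusted p alone 2 were higher and 1, VWF, was lower. CDH5, the cadherin of endothelial junctions, had 0, 29 and 44 counts in HepG2 and 94, 181 and 180 counts in APOA4-KO at 0 h, and 209 counts in APOA4-KO 24 h replicate 1. KDR, a receptor of vascular endothelial growth factor, had 0, 0 and 13 counts and 38, 48 and 45 counts, with 41 counts in APOA4-KO 24 h replicate 1, and TEK, the receptor of angiopoietins, had 0, 7 and 8 counts and 44, 60 and 48 counts, with 58 counts there. In the other 5 APOA4-KO libraries CDH5 had 32 to 83 counts, KDR 0 to 8 counts and TEK 0 to 12 counts. The defining marker VWF was present in both lines and lower in APOA4-KO, with 535, 500 and 611 counts in HepG2 and 310, 487 and 413 counts in APOA4-KO. PECAM1 did not follow the pattern, with 470, 386 and 423 counts in HepG2 and 632, 734 and 616 counts in APOA4-KO. It had 528 counts in APOA4-KO 24 h replicate 1 and 374 to 568 counts in the other 5 APOA4-KO libraries. The summed level of the 5 markers was 11.2 to 13.2 CPM in HepG2 and 14.1 to 16.8 CPM in APOA4-KO. Of the stellate and fibroblast markers, whose summed level was 160 to 163 CPM in HepG2 and 127 to 129 CPM in APOA4-KO, COL1A1 was higher and PDGFRB was present in both. Most of the sum came from ACTA2, with 11148, 10936 and 10845 counts in HepG2 and 7324, 8115 and 7966 counts in APOA4-KO. The macrophage marker MARCO had no count in any library, and CD163 and CSF1R had at most 35 counts. CD68 had 3317, 2938 and 2946 counts in HepG2 and 2390, 2587 and 2373 counts in APOA4-KO. CD14 had 581, 549 and 562 counts and 598, 767 and 618 counts. The summed level of the macrophage markers, 1079 to 1089 CPM in HepG2 and 1572 to 1614 CPM in APOA4-KO, was carried by lysozyme (LYZ, exon overlap 34.0%). LYZ had 87846, 85686 and 86123 counts and 124615, 141824 and 133634 counts. The part of these markers in the results was not tested.

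The lists of signalling genes differed in their share of changed genes, beside 4.31% of all tested genes. Changed were 6 of 33 genes of TGF-beta and BMP, 5 of 34 of chemokines, cytokines and NF-kappaB targets, 5 of 48 of growth factors and receptor tyrosine kinases and 3 of 32 of WNT. None of 27 genes of NOTCH and YAP, none of 18 of JAK-STAT and 1 of 32 immediate early and MAPK feedback genes was changed. The WNT antagonists DKK4 (−1.87), SFRP5 (−1.86) and SFRP4 (−1.03) were the 3 changed genes of 32 of the WNT pathway, and DACT2, a further WNT regulator, was among the largest decreases, with 545, 491 and 468 counts in HepG2 and 16, 48 and 12 counts in APOA4-KO (log2 fold change −4.35, SE 0.36, edgeR adjusted p = 1.86e-08). In the TGF-beta and BMP list, 3 genes were lower, INHBB (−1.71) and INHBE (−1.20), subunits of activins, and FSTL3 (−1.48), which binds activins. LEFTY1 (1.09), GREM1 (2.02) and TGFB2 (2.09) were higher, the last 2 within the 4-library pattern, and the exon overlap is 46.6% for LEFTY1 and 26.6% for TGFB2. EGFR, the receptor of epidermal growth factor, had 533, 529 and 452 counts in HepG2 and 1351, 1391 and 1312 counts in APOA4-KO (log2 fold change 1.39). In the list of 48 growth factors and receptor tyrosine kinases, 5 were higher, and the number was 2 or 3 with 1 library left out but 11 in a fit of the 6 libraries of 0 h alone. The chemokine CCL20 (1.23), the interleukin antagonist IL1RN (1.28) and CXCL8 (1.21) were higher, with 1422, 1397 and 1383 counts of CCL20 in HepG2 and 3182, 3451 and 3466 counts in APOA4-KO. IL6 and CSF2, also counted as higher among the 34 genes of that list, are in the 4-library pattern, and without HepG2 replicate 1 or HepG2 replicate 3 the list had 3 changed genes in place of 5.

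The remaining large differences are in genes of varied function. ADGRG3, an adhesion G protein-coupled receptor, had 42, 35 and 28 counts in HepG2 and 1089, 1160 and 943 counts in APOA4-KO (29.7-fold, log2 fold change 4.89, SE 0.25, edgeR adjusted p = 2.21e-11). This was the largest increase among changed genes with a gene symbol, no overlap and a mean of 500 counts or more in the higher line. The long noncoding RNA LINC00958 had 13, 34 and 30 counts in HepG2 and 564, 548 and 604 counts in APOA4-KO (log2 fold change 4.44). PROM1 (2.90), the stem cell marker CD133, the kinase FYN (2.79), the actin-binding ABLIM3 (2.73) and the peptidase DPP4 (2.61) were likewise without overlap. The actin crosslinker FLNC (3.18) and FSTL1 (2.73), a secreted glycoprotein, are in the 4-library pattern, and FLNC had only 14 counts in HepG2 replicate 1 against 137 and 166 in the others, without which its adjusted p was 0.0703. The second ID of MATR3 (2.83) and BSCL2 share most of their exon bases with other genes, and summed over both IDs MATR3 was 129.8 ± 1.70 CPM in HepG2 and 138 ± 1.80 CPM in APOA4-KO.

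Among the decreases, the transcription factor WT1 had 492, 654 and 519 counts in HepG2 and 40, 76 and 65 counts in APOA4-KO (log2 fold change −3.25). ALPL, the tissue-nonspecific alkaline phosphatase, had 2166, 2191 and 1777 counts and 261, 264 and 187 counts (−3.14), and PLA2G2A, a secreted phospholipase, had 9515, 9715 and 10149 counts and 1775, 1980 and 1819 counts (−2.43). In each of the 3 genes every APOA4-KO library lay far below every HepG2 library. The carnitine and creatine transporter SLC16A9 (−2.58), MDFI (−2.50), SEC14L5 (−2.39), ZNF114 (−2.37), SYTL2 (−2.36), NDRG4 (−2.29) and perforin (PRF1, −2.16) followed. PGC, the gastric protease precursor pepsinogen C, was the most abundant lower gene, with 130172, 126409 and 128477 counts in HepG2 and 49477, 56296 and 52668 counts in APOA4-KO (1540 ± 9.74 and 619 ± 11 CPM, SD, n = 3, log2 fold change −1.32). The protease FURIN was lower by −1.43. Solute carriers of the liver gave 4 lower and 2 higher genes of 57, against 1.66% and 2.65% of all tested genes. They were the betaine transporter SLC6A12 (−1.54), the iron exporter SLC40A1 (−1.02) and SLC7A7 (−1.66) beside SLC16A9, and SLC6A14 (2.46) and SLC7A10 (3.04). In the amino acid list, arginase (ARG1), the last enzyme of the urea cycle, had 19, 40 and 24 counts in HepG2 and 246, 243 and 215 counts in APOA4-KO (log2 fold change 3.05), HAL was higher by 1.39, and GNMT (−1.13) and SDSL (−1.01) were lower.

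**Figure D4:**
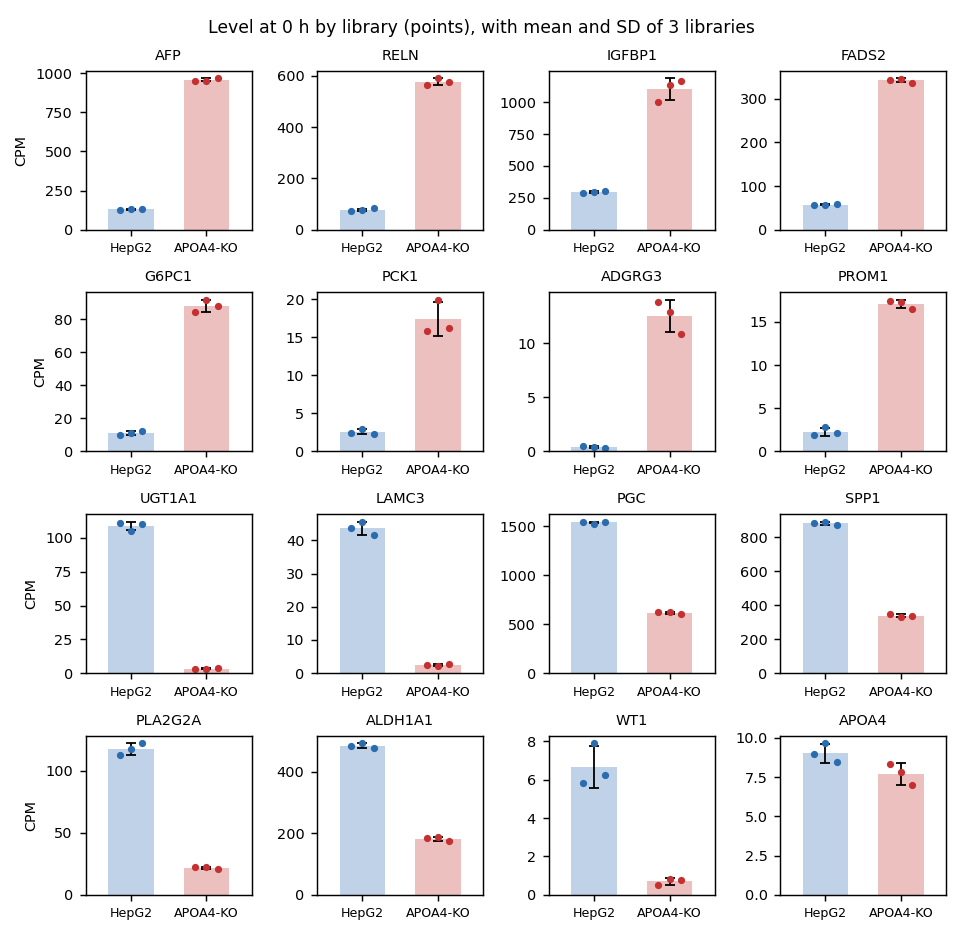
Level (CPM, linear axes from 0) of 16 genes in the 3 libraries of each line at 0 h (points), with the mean (bar) and the SD (error bar). In AFP, RELN, IGFBP1, FADS2, G6PC1, PCK1, ADGRG3 and PROM1 all points of APOA4-KO lie above those of HepG2, in UGT1A1, LAMC3, PGC, SPP1, PLA2G2A, ALDH1A1 and WT1 they lie below, and in APOA4 the groups lie close to each other.

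In 100 of the changed genes, the 3 libraries of 1 line all had at most 3 counts, so that the difference has only a lower bound, taken against 3 counts in each library. HepG2 was at this floor for 65 genes and APOA4-KO for 35, with median bounds of at least 4.54-fold and 4.8-fold. A single gene had 100 counts or more in every library of the other line, ENSG00000284292 on chromosome 7, with 0, 1 and 0 counts in HepG2 and 448, 906 and 2873 counts in APOA4-KO, but 92.1% of its exon bases overlap another gene. CSF2 (0 in HepG2, 44, 40 and 55 counts in APOA4-KO) was at least 15.4-fold higher, and UGT1A4 (95, 69 and 106 counts in HepG2, none in APOA4-KO) at least 30.2-fold lower within the shared locus of UGT1A1. ECEL1, an endopeptidase gene, had 40, 48 and 40 counts in HepG2 and none in APOA4-KO and was at least 14.3-fold lower.

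Some programs did not pass the limits in any member. None of 28 genes of DNA replication and S phase and none of 30 of mitosis was changed in edgeR's test, with medians of 0.10 and 0.09, although 8 and 12 of them were higher and 2 and 3 lower at an adjusted p under 0.05. No gene of 24 hepatocyte transcription factors was changed, with 5 higher and 9 lower by the adjusted p. ONECUT1 was at 0.93, HNF4A at 0.16, CEBPA at −0.61 (exon overlap 43.4%) and GATA6 at −0.73. The 13 protein-coding genes of the mitochondrial genome had a median of 0.10. By chromosome, the median over protein-coding genes lay between −0.11 on chromosome 19 and 0.13 on chromosome 4, against −0.01 over 14743 genes, and the share of changed genes was 2.81% on chromosome 19, 6.54% on chromosome 4 and 8.84% on chromosome 21, which has 147 tested genes. No chromosome departed from the others by an amount near the limit of 2-fold. In the scaling by library size or by DESeq2's size factors, the range between these medians was the same to 0.01.

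The changed genes were then followed into hypoxia, in libraries that share no sample with the 0 h comparison, though the same fit estimated the spread. Of the 851 genes, 413 were changed in the same direction at 24 h (48.5%) and 430 at 48 h (50.5%), against 7.77% and 13.6% of all tested genes changed in either direction at these times. At both times 280 genes kept the direction as changed genes (32.9%), 283 were changed at neither time, and 2 and 5 genes were changed in the opposite direction. Of the higher genes 32.6% and of the lower genes 33.3% were changed the same way at both times. By interaction terms of the fit, the difference at 24 h departed from that at 0 h in 123 of the 851 genes, against 2.59% of all tested genes, and the difference at 48 h in 183, against 7.42%. The 851 genes were chosen for a large difference at 0 h, which these terms subtract, so a higher share than among all genes follows in part from the choice. The 57 genes of the 4-library pattern were chosen for low values in 5 of the 6 later APOA4-KO libraries and in every HepG2 library. This choice favours smaller differences at the later times but does not fix them, since the level in HepG2 can fall as well. The genes were also chosen for high values in APOA4-KO 24 h replicate 1, which raises their difference at 24 h. Of the 57 genes, 31 were still changed the same way at 24 h and 14 at 48 h. The number at 24 h therefore rests in part on a library used for the choice. Of the other 467 higher genes, 160 were changed the same way at both times, and their median log2 fold change was 1.68 before hypoxia, 1.16 at 24 h and 1.33 at 48 h. AFP (3.00 at 24 h and 2.71 at 48 h), RELN (4.14 and 3.51), ADGRG3 (5.13 and 5.71), UGT1A1 (−5.22 and −4.18) and LAMC3 (−5.32 and −3.73) remained different at both times. RSAD2 (1.62 and 1.04), IFIT1 (0.81 and −0.34) and ITGA5 (0.57 and −0.14) of the 4-library pattern were not changed at either time.

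**Figure D5:**
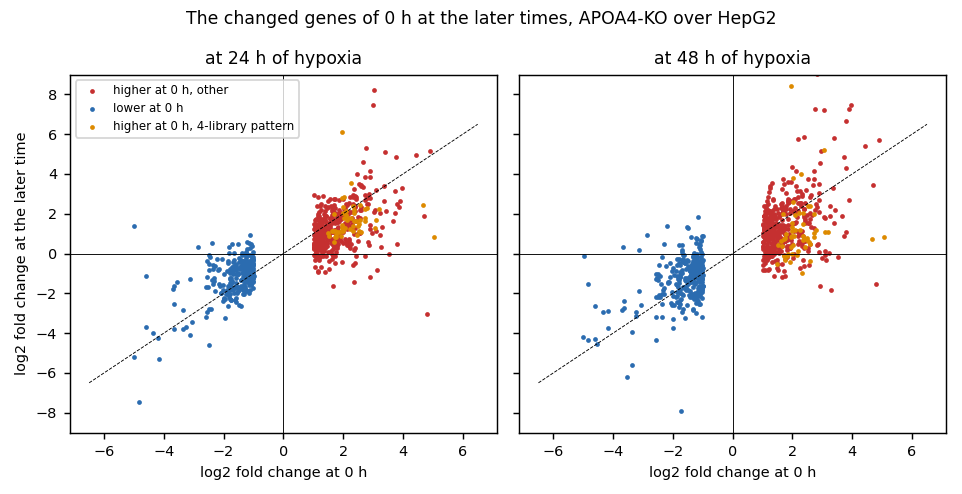
Log2 fold change of APOA4-KO over HepG2 at 24 h (left) and 48 h (right) of hypoxia against that at 0 h, for 750 changed genes of 0 h above the floor of 3 counts in both lines, with the line of equality dashed. Most genes keep their sign, and the genes of the 4-library pattern (orange) lie mostly below the dashed line, which the rule that chose them favours but does not require.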

How the data were processed

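Poly(A) RNA of 18 HepG2 and APOA4-KO samples was sequenced, of which the 6 of 0 h are compared here. The authors used fastp for trimming, HISAT2 for alignment to GRCh38.p13 and, by the methods, counted with featureCounts, while the submitters' processing notes name StringTie. The deposited table holds whole-number counts of 61806 genes without normalization, of which 28200 had no count. The authors also deposited FPKM values for 33601 genes, used here in 1 alternative. Library preparation marked strand, but the strand setting of the counting is not given in the sources used here.

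Counts were fitted with edgeR 4.0.16 in R 4.3.3 (filterByExpr, TMM, quasi-likelihood, a coefficient for each of the 6 groups, all 18 libraries), with Benjamini-Hochberg adjustment over all 19743 tested genes. The SE is the absolute log2 fold change divided by the square root of the F statistic. Scripts were tested on simulated counts. Symbols matched 42101 IDs. Coordinates and exon overlap came from GENCODE 29, and promoters from RefSeq on GRCh38.p14. Where a symbol has several IDs, lists use the ID with the most counts.

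The text names APOA4 and EPO, the 15 largest differences in each direction among changed genes with a gene symbol whose higher line had a mean of 500 counts or more and no overlap, the 8 most abundant changed genes in each direction, genes at the floor in 1 line with at least 100 counts in the other, and members of 49 gene lists. The comparison, its members and the lists were chosen with earlier results of these data known. ECEL1, UGT1A4 and genes of the 4-library pattern named outside the lists were chosen after their values were seen. Refits used other scalings, filters, DESeq2 1.42.0, limma 3.58.1 on log2(FPKM + 1), the 6 libraries of 0 h alone and the omission of each library.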

Additional observations from a re-analysis of the deposited data

Results flagged for a closer look

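The difference between the lines at 0 h was compared with that at 24 h and 48 h by interaction terms of the edgeR fit. Of the 851 genes changed at 0 h, the difference had changed by 2-fold or more with an adjusted p under 0.05 in 123 genes at 24 h and in 183 genes at 48 h, against 2.59% and 7.42% of all tested genes. These genes were chosen for a large difference at 0 h, which the interaction subtracts. Each value here is the log2 fold change at the later time minus that at 0 h. APOA4 moved by −1.12 at 24 h and −1.07 at 48 h. Gluconeogenic and insulin-repressed genes moved in either direction, with G6PC1 at −1.93 and 2.19, PCK1 at 2.57 and 4.53, DEPP1 at −1.52 and 1.89 for 24 h and 48 h, and IGFBP1 at −1.11 for 24 h. At 24 h the difference grew in RELN (1.25) and FGB (1.20) and in the negative direction in LAMC3 (−1.15) and MDFI (−2.09), and it shrank in SEC14L5 (1.08), SYTL2 (1.57) and PRF1 (1.37). At 48 h the difference grew in ABLIM3 (1.45) and shrank in MATR3 (−2.41, the ID that shares its exons), FADS2 (−1.03), DACT2 (1.43) and ALPL (1.23).

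APOA4-KO 24 h replicate 1, a library outside the 0 h comparison, had a summed level of 348.9 CPM for the 57 changed genes of the 4-library pattern. APOA4-KO 24 h replicates 2 and 3 had 66.3 and 76.6 CPM. The genes were chosen for high values in replicate 1 and low values in the other libraries of 24 h, so this order follows from the choice.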

How the results depend on the processing

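With limma on log2(FPKM + 1), 142 genes were changed, 75 higher and 67 lower, 47 genes of the lists and 66 genes at all 3 times, against 851, 524, 327, 143 and 280; a fold change on that scale is smaller for low genes. Without a limit on the fold change the counts were 6015, 2548 and 3467. Leaving out 1 library of 0 h gave 733 to 797 changed genes (418 to 475 higher, 303 to 327 lower), 43 to 45 of the 45 changed named genes and 122 to 132 genes of the lists, and without APOA4-KO 24 h replicate 1, an omission chosen after seeing the data, 869. DESeq2 gave 998 and the 6 libraries alone 934. The log2 fold change of APOA4 stayed negative but missed an adjusted p of 0.05 with library size alone (−0.20), DESeq2's size factors (−0.20), no filter (−0.23), the 6 libraries alone (−0.20), DESeq2 (−0.20) and the replicate block (−0.23), and it was −0.29 to −0.16 with 1 library left out. The adjusted p over its refits was 0.0197 to 0.185. The cause was not tested. Replicate numbers did not pair the libraries, with correlations of deviations of −0.02 to 0.01 between same-numbered libraries, and the replicate block gave 808 changed genes. Counts that need not be single read pairs limit the precision of genes with few counts: 274 changed genes had a mean under 100 counts in the higher line.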

Other observations

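Hemoglobin transcripts varied by orders of magnitude between libraries of the same group, in an order shared by the lines. The HepG2 libraries of 0 h had 7211, 19967 and 34 counts of HBB, those of 24 h 2616, 519 and 11847, and those of 48 h 7280, 19172 and 6159. The APOA4-KO libraries of 0 h had 21676, 6974 and 20620 counts, those of 24 h 45, 3031 and 444, and those of 48 h 13102, 8055 and 21069. With the libraries of each line placed in order of time and replicate, each HepG2 library except the last resembles the APOA4-KO library that is 1 place later, such as HepG2 0 h replicate 1 with 7211 counts and APOA4-KO 0 h replicate 2 with 6974. Over the 7 such pairs with at least 100 counts in both, the larger count of HBB was 1.03 to 1.17 times the smaller, while between libraries of the same time and number it was 1.8 to 26.7 times. HBA1 gave 1.01 to 1.38 times in the shifted pairs and 1.31 to 8.87 times otherwise, and HBA2 1.03 to 1.41 and 1.47 to 7.61. PTPRC, the leukocyte marker CD45, gave 1.01 to 1.53 and 1.04 to 2.39, and it was at 4 counts in HepG2 0 h replicate 3 and at 0 in APOA4-KO 24 h replicate 1, the pair in which HBB was at 34 and 45 and HBA1 at 57 and 207. Whether reads of 1 library entered another was not tested, here or for the 4-library pattern. These genes were looked at after their values had been seen, and no erythroid or lymphocyte marker was changed at 0 h.

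Some genes of the 4-library pattern also separated the remaining libraries. IL6 had 46, 85 and 48 counts in HepG2 at 0 h and 0 to 4 in the 6 later HepG2 libraries. The APOA4-KO libraries of 0 h had 236, 284 and 199 counts of it, those of 24 h 224, 29 and 47, and those of 48 h 43, 36 and 36. IGFBP5 had 100, 102 and 116 counts in HepG2 at 0 h and 4 to 43 in the later HepG2 libraries, while the APOA4-KO libraries of 0 h had 626, 518 and 418 counts, those of 24 h 548, 85 and 114, and those of 48 h 122, 110 and 86.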
